A study of Mus musculus with 3 samples.

Results

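The genes described here encode carriers that move neutral and cationic amino acids across cell membranes, taken as every deposited gene row whose symbol belongs to the SLC7, SLC38, SLC36, SLC43 or SLC3 family. The rule found 35 members among 47593 gene rows: 15 of SLC7, 11 of SLC38, 4 of SLC36, 3 of SLC43 and 2 of SLC3. All 35 were annotated as protein coding. RNA was sequenced in 3 libraries, replicates 1 to 3 of a single group: hippocampal neurons in primary culture, from mice labelled wild type. The group received fresh neuronal medium with B27 and penicillin-streptomycin for 24 h. The growth medium was Neurobasal, supplemented with B27 at 10% and with GlutaMAX, a stable dipeptide source of glutamine, at 1%. Neurons given apoE particles are part of the study's design and were not analysed here, which leaves levels, ratios and spread within 1 group to describe. The age of the animals and the number of cultures are not given in the labels used here, and the spread between libraries may be technical.

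Amino acid carriers of these families differ in what they carry and where they sit. Most SLC7 members are light chains that reach the plasma membrane only when bound to an SLC3 heavy chain and exchange 1 amino acid for another, whereas the CAT proteins work without a heavy chain and carry arginine and lysine. SLC38 members couple uptake or release of glutamine and other small neutral amino acids to sodium, and in brain they are known for the passage of glutamine from astrocytes to neurons, which make glutamate and GABA from it. Some SLC36 members couple transport to protons and some act at the lysosome, and SLC43 members are uniporters of large neutral amino acids.

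The names include exceptions. Slc7a11 exchanges cystine for glutamate, both carried as anions, Slc43a3 is known as a carrier of purine bases, and no transport has been settled for Slc7a4. They were kept because the rule takes them by symbol.

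Promoter sequences were available from RefSeq (GRCm38.p6) for 25 of the 35 members, in 36 windows from 250 bases before to 50 bases after an annotated start. They were searched on both strands for 3 motifs of regulators known to act on such genes. The C/EBP-ATF response element (TGATGNAA), bound by ATF4 in amino acid shortage, was found in 2 of the 25 members, in 3 of their 36 windows, and in 3.97% of 32851 windows of all genes. The antioxidant response element (TGACNNNGC), bound by NRF2, was found in 5 members, in 6 of their 36 windows, and in 12.4% of all windows. The E-box (CACGTG), bound by TFEB and other factors, was found in 5 members, in 5 of their 36 windows, and in 7.15% of all windows. A match is a description of letters and not a measured site.

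The sequences of 3 members are shown: Slc3a2 because it was the highest member, with none of the motifs in the printed bases, Slc7a11 because its window held 2 response elements facing opposite ways, and Slc36a1 because its window held 2 E-boxes. Each runs 5′ to 3′ on the gene's strand with motif matches in capitals. They cover chr19:8713898-8714147 on the minus strand, an internal start of the annotated gene, chr3:50443614-50443863 on the minus strand, and chr11:55204090-55204342 on the plus strand.
Slc3a2: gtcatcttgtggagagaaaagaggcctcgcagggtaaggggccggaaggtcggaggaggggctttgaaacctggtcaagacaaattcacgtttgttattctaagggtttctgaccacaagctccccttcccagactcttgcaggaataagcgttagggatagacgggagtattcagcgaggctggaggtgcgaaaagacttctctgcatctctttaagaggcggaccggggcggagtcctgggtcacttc
Slc7a11: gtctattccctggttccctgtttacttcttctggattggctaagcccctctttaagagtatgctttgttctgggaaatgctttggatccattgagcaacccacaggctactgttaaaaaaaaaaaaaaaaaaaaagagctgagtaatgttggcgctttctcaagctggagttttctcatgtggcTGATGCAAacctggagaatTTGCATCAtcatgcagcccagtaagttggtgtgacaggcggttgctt
Slc36a1: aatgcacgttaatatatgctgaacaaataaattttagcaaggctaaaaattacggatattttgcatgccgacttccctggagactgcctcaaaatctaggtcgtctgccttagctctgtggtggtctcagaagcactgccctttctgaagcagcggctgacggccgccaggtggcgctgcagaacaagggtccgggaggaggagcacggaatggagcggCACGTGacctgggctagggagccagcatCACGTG

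In Slc7a11 the first match, TGATGCAA, lay at bases -66 to -59 from the start and the second, TTGCATCA on this strand, at bases -47 to -40. Of all windows, 0.07% held this motif more than once. Slc7a7, the other member with it, also held 2 in a window, at bases -141 to -134 and -1 to 7. The E-boxes of Slc36a1 lay at bases -31 to -26 and -3 to 3, and an antioxidant response element that begins inside the second ran from base 2 to base 10, past the end of the printed bases. More than 1 E-box was held by 0.594% of all windows. Single E-boxes were found in Slc7a14, Slc38a5, Slc38a7 and Slc43a1, and antioxidant response elements in Slc7a1, Slc7a6, Slc38a2 and Slc43a1.

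The authors deposited log2 values from which the underlying reads could be recovered as whole numbers, and both are used here. The totals of recovered reads were 18780578 in replicate 1, 18683959 in replicate 2 and 18885652 in replicate 3. A level in CPM is the number of recovered reads per 1000000, given as the mean ± SD over the libraries (n = 3) and, where genes are compared with each other, per kilobase (kb) of annotated exon. In a library without reads of a gene, 3 reads, or 0.16 CPM, remained possible. Ratios on the log2 scale were taken from deposited values unless recovered reads are named, after 0.5 CPM per kb was added to each level. The added constant makes them smaller than the levels themselves give, most for low genes. Deposited values pull libraries together, so their SD understates the spread. Intervals and floors cover counting error only.

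The cultures matched their label as neurons but were not pure. All 6 neuronal markers checked were detected, at a summed level of 3829 to 3843 CPM, and so were all 6 astrocyte markers at 1800 to 1823 CPM and all 4 markers of oligodendrocyte precursors at up to 267 CPM. Microglial markers (1 of 6 detected) summed to 3.30 to 5.08 CPM and endothelial markers (1 of 6 detected) to 5.14 to 5.43 CPM, with the endothelial gene Cldn5 at 0 reads. Mature oligodendrocyte markers (3 of 4) summed to 34.5 to 36.7 CPM and mural and fibroblast markers (4 of 6) to 54.7 to 60.7 CPM. In RNA from a mixed culture, fewer cells of a type and less RNA per cell cannot be told apart, and which cells held each transporter's RNA was not tested.

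Of the 35 members, 22 were detected, meaning at least 1 CPM in every library. This is 62.9% of the members, against 59.2% of protein-coding genes and 29.4% of all gene rows. In recovered reads 22 members were detected as well, against 28.7% of all gene rows. Another 11 members had reads but lay below 1 CPM in at least 1 library, and Slc7a15 and Slc36a3 were at 0 in all libraries. The median member lay at 3.69 CPM per kb, beside 1.27 CPM per kb for protein-coding genes. The members took 0.320% ± 0.0034 of all expression in deposited values (SD, n = 3), and the SD was 0.0057 in recovered reads. In sum this was 3197 CPM. SLC7 held 47.4% of that sum, SLC38 24.5%, SLC3 22.3%, SLC36 3.88% and SLC43 1.85%, with no correction for length. Per kb SLC7 held 47.4%, SLC3 33.2%, SLC38 15.1%, SLC36 3.24% and SLC43 1.00%, so that SLC3 passed SLC38. Slc3a2, Slc7a5, Slc7a1 and Slc38a1 alone held 65.8% ± 0.252 of the sum in deposited CPM. In recovered reads the SD of this share was 0.364.

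**Figure D1:**
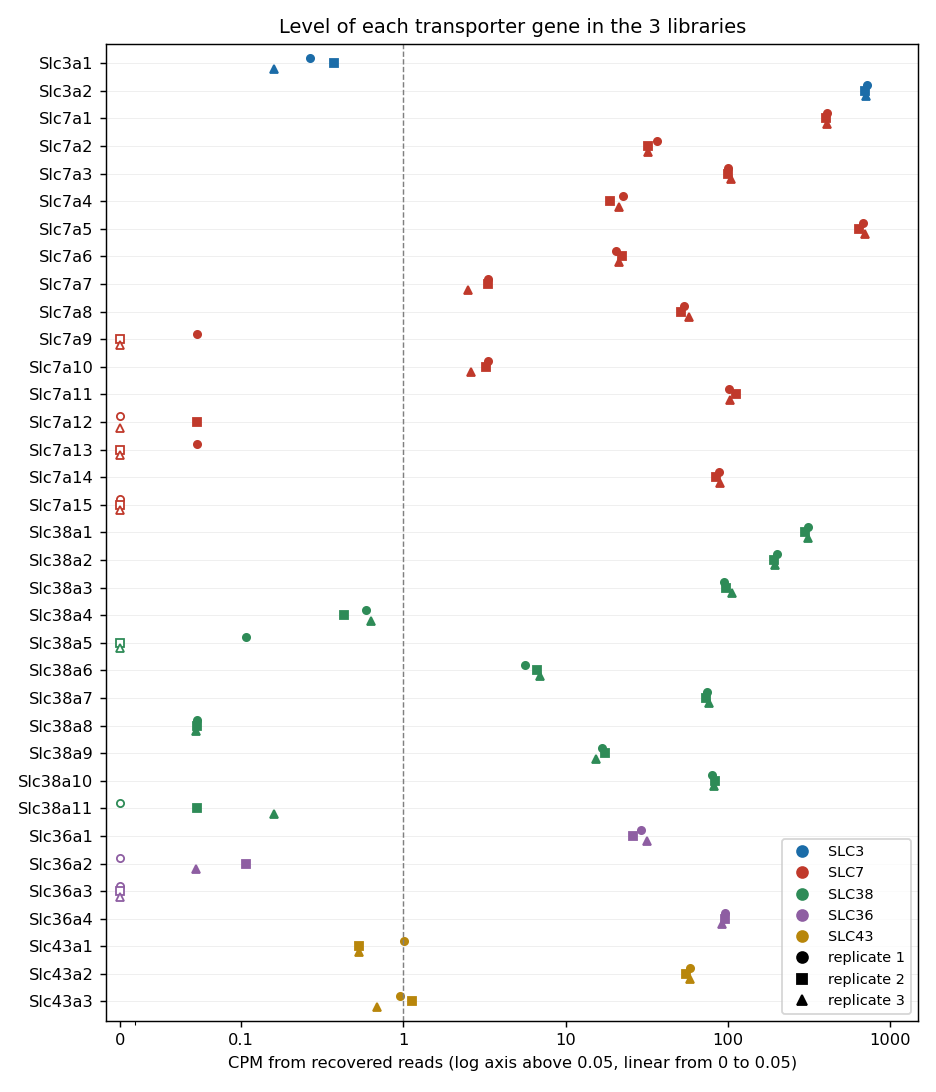
CPM from recovered reads (horizontal axis, log above 0.05) of the 35 members, 1 row each, with 1 symbol per library, colour for the family, open symbols for 0 reads and a dashed line at 1 CPM. The 22 detected members lie right of the line in every library, and Slc43a1 and Slc43a3 straddle it.

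Among the heavy chains, RNA of Slc3a2 was abundant and that of Slc3a1 nearly missing. Slc3a2, which encodes 4F2hc (CD98), the heavy chain of most SLC7 light chains, lies on chromosome 19 from 8706882 to 8723369 (GRCm38). Its deposited log2 values were 13.71, 13.70 and 13.71 in replicates 1, 2 and 3, from 13490, 13115 and 13507 reads. The libraries were nearly level, and Slc3a2 was the highest member at 712 ± 8.69 CPM, or 202 CPM per kb, above 99.7% of gene rows with a known length. Slc3a1, which encodes rBAT, the heavy chain of the kidney cystine carrier, had 5, 7 and 3 reads. Per kb of exon Slc3a2 exceeded Slc3a1 by 1721-fold in pooled reads (95% exact binomial interval 1043 to 3075). Of the exon bases of Slc3a1, 26.5% overlap the gene Prepl on the opposite strand, and the sources used here do not say if reads were counted by strand. The carrier that pairs with rBAT, Slc7a9, had 1 read in all.

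The light chains that pair with 4F2hc were led by a single gene. Slc7a5, which encodes LAT1, an exchanger of leucine and other large neutral amino acids, had log2 values of 13.64, 13.59 and 13.67 and 12835, 11980 and 13310 reads. Replicate 2 was lowest and replicate 3 highest. At 676 ± 32.4 CPM, or 182 CPM per kb, it made up 87.7% ± 0.321 of the 6 light chains counted per kb in deposited values. Slc7a8, which encodes LAT2 with a wider range of neutral substrates, had 1004, 964 and 1088 reads (54.2 ± 3.08 CPM). Slc7a5 lay above Slc7a8 by 4.01 ± 0.02 log2 units per kb, a 16.1-fold ratio.

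The cystine exchanger gene Slc7a11 (xCT), a source of cystine for glutathione whose 2 response elements are shown above, had 1909, 2091 and 1960 reads, and replicate 2 was highest. It reached 106 ± 5.42 CPM but 7.60 CPM per kb, since its annotated exons sum to 13922 bases. Slc7a6 (y+LAT2), an exchanger of cationic for neutral amino acids, had 386, 417 and 403 reads (21.4 ± 0.884 CPM). Slc7a5 exceeded it by 5.14 ± 0.05 log2 units per kb, with an SD of 0.11 in recovered reads.

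The remaining partners were low. Slc7a10 (Asc-1), a carrier of glycine, serine and D-serine, had 62, 60 and 49 reads (3.04 ± 0.385 CPM), and Slc7a7 (y+LAT1), of epithelia and macrophages, had 62, 62 and 47 reads (3.04 ± 0.474 CPM). Both overlap a coding gene on the opposite strand, Lrp3 with 17.9% and Oxa1l with 7.0% of their exon bases. Slc7a11 lay above Slc7a10 by 2.06 ± 0.03 log2 units per kb. In recovered reads the SD of this ratio was 0.14. It was 2.32 with 0.1 CPM per kb added and 1.82 with 1 added, 2.54 on the longest transcript, and 4.91 with no correction for length.

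Set against its partners, the heavy chain gene was at about the level of all light chain genes together per kb of exon. Slc3a2 over the sum of Slc7a5, Slc7a6, Slc7a7, Slc7a8, Slc7a10 and Slc7a11 gave -0.04 ± 0.03 log2 units per kb in deposited values, with -0.04, -0.02 and -0.07 in the libraries. In recovered reads the 3 values were -0.04, 0.002 and -0.09, so that their sign was not the same in every library. With the length of the longest transcript in place of all exons the ratio was 0.17, and with no correction for length it was -0.28. These are RNA levels, and protein was not measured.

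The cationic carriers CAT1 to CAT3 were all expressed. Slc7a1 (CAT1), the widely expressed arginine and lysine carrier, had log2 values of 12.91, 12.90 and 12.91 and 7724, 7586 and 7739 reads, with a CV between libraries of 0.663%. It was the third highest member at 409 ± 2.71 CPM, or 35.5 CPM per kb. Slc7a3 (CAT3), known from neurons, had 1886, 1876 and 1972 reads (102 ± 2.31 CPM). Per kb it lay close to Slc7a1, which exceeded it by 0.39 ± 0.01 log2 units, a 1.31-fold ratio, with values of 0.36 to 0.42 in recovered reads. The exons of Slc7a1 sum to 11530 bases and those of Slc7a3 to 3784, so that in CPM alone, 409 for Slc7a1 and 102 for Slc7a3, the gap was wider.

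Slc7a2 (CAT2), the isoform gene linked to arginine supply of macrophages and liver, had 684, 606 and 611 reads (33.7 ± 2.33 CPM), with replicate 1 highest. Slc7a1 exceeded it by 3.10 ± 0.02 log2 units per kb, with an SD of 0.08 in recovered reads. Of the CAT-like members without a settled role at the plasma membrane, Slc7a14, found at lysosomes, had 1656, 1590 and 1685 reads (87.5 ± 2.14 CPM). Slc7a4 had 426, 351 and 401 reads (20.9 ± 1.97 CPM) and shares 13.3% of its exon bases with P2rx6 on the opposite strand. Of the rest of SLC7, Slc7a12 and Slc7a13 had 1 read each, and Slc7a9 and Slc7a15 are given above. Thus 11 of 15 SLC7 members were detected.

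Glutamine carriers of SLC38 were expressed in several forms, 7 of 11 being detected. Slc38a1 (SNAT1) and Slc38a2 (SNAT2) are the sodium-coupled system A carriers by which neurons take up glutamine. Slc38a1 had log2 values of 12.50, 12.48 and 12.51 from 5835, 5627 and 5874 reads, or 308 ± 5.60 CPM. Slc38a2 had log2 values of 11.86, 11.84 and 11.85 from 3756, 3629 and 3712 reads, or 197 ± 2.90 CPM. Which of the 2 is higher depends on the length used. Slc38a1 lay below Slc38a2 at -0.31 ± 0.01 log2 units per kb of all exons, but above it at 0.39 per kb of the longest transcript and at 0.64 with no correction for length. Exons annotated for Slc38a1 sum to 17236 bases, whereas its longest transcript has 7266.

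System N genes, whose products in brain are known for glutamine release by astrocytes, were split. Slc38a3 (SNAT3) had 1790, 1832 and 2007 reads (99.9 ± 5.70 CPM), with replicate 3 highest, whereas Slc38a5 (SNAT5) had 2, 0 and 0 reads. In pooled reads per kb Slc38a3 exceeded Slc38a5 by 1195-fold, with a wide 95% interval of 331 to 9872. Slc38a1 over Slc38a3 was -0.08 ± 0.03 log2 units per kb, and in recovered reads the values ran from -0.15 to -0.003. On the longest transcript this ratio was 0.41. Astrocyte markers, given above, were detected in every library, and their part in the level of Slc38a3 was not tested.

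Slc38a4 (SNAT4), the system A carrier of liver and placenta, had 11, 8 and 12 reads. Slc38a2 exceeded it by 173-fold per kb in pooled reads (95% interval 122 to 254). Slc38a6, an SLC38 member of brain, had 105, 125 and 132 reads (6.42 ± 0.736 CPM) and Slc38a10 had 1497, 1551 and 1551 reads (81.6 ± 1.71 CPM). Slc38a8, known for its role in the retina, had 1 read in each library, and Slc38a11 had 0, 1 and 3 reads.

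Carriers of the lysosome hand amino acids from protein breakdown back to the cytosol. Of members known from the lysosome, Slc38a7, Slc38a9 and Slc36a1 were detected, as was Slc7a14, given above. Slc38a7 (SNAT7), an exporter of glutamine and asparagine, had 1390, 1374 and 1452 reads (74.8 ± 1.81 CPM). Slc38a9, which senses arginine inside the lysosome and passes the signal to the kinase complex mTORC1, had 317, 326 and 289 reads (16.5 ± 1.11 CPM), or 0.990 CPM per kb. Slc36a1 (PAT1), a proton-coupled exporter of small amino acids with 2 E-boxes in the window above, had 550, 486 and 597 reads (29.0 ± 2.81 CPM). Its libraries were spread by a 1.22-fold range, with replicate 2 lowest. Slc38a9 lay below Slc36a1 at -1.92 ± 0.03 log2 units per kb, with an SD of 0.19 in recovered reads. The size of this ratio depended on the constant and the length, being -2.27 with 0.1 CPM per kb added, -1.63 with 1 added, -1.35 on the longest transcript and -0.79 with no correction for length.

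Slc36a4 (PAT4), a high-affinity carrier of proline and tryptophan, was the highest of SLC36 with 1794, 1808 and 1747 reads (94.9 ± 2.19 CPM). Slc36a1 lay below it at -1.41 ± 0.04 log2 units per kb, with an SD of 0.16 in recovered reads. Slc36a2 (PAT2) had 0, 2 and 1 reads and Slc36a3 (PAT3, of testis) had none in 3 libraries, which allows up to 0.0532 CPM over the libraries together.

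Of the SLC43 uniporters, 1 of 3 was detected. Slc43a2 (LAT4), a carrier of leucine, phenylalanine and methionine, had 1098, 1039 and 1113 reads (57.7 ± 1.80 CPM). Slc7a5 exceeded it by 4.87 ± 0.03 log2 units per kb, and by 3.54 with no correction for length. Slc43a1 (LAT3) had 19, 10 and 10 reads, so that replicate 1 reached 1 CPM and the other libraries did not. In pooled reads per kb Slc43a1 stood at 0.0211 of the level of Slc43a2 (95% interval 0.0150 to 0.0289). Slc43a3 had 18, 21 and 13 reads, above 1 CPM in replicate 2 alone. Its pooled level of 0.923 CPM had a 95% exact Poisson interval of 0.689 to 1.21 CPM, and that of Slc43a1 ran from 0.492 to 0.946 CPM. Among the other undetected members with reads, Slc38a4 had an interval of 0.374 to 0.781 CPM and Slc3a1 of 0.149 to 0.439 CPM, and none of the rest reached above 0.182 CPM.

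Some members that lie near each other in the genome were far apart in reads, with no correction for length. Pairs from other places were not compared. On chromosome 11 Slc36a3, Slc36a2 and Slc36a1 follow each other with gaps of 6.76 and 19.3 kb and had 0, 3 and 1633 reads in all. On chromosome 15 Slc38a1 and Slc38a2 lie 44.5 kb apart with 17336 and 11097 reads, while Slc38a4, 295 kb further, had 31. Slc7a10 and Slc7a9 on chromosome 7 had 171 reads and 1 read over a gap of 248 kb. Slc7a7 and Slc7a8 on chromosome 14, 304 kb apart, had 171 and 3056 reads. Slc43a1 and Slc43a3 on chromosome 2, 73.0 kb apart, were alike in being rare, with 39 and 52 reads.

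Ordered by CPM per kb, the members fell into a top pair and a long slope. Slc3a2 and Slc7a5 led at 202 and 182, followed by Slc7a1 at 35.5, Slc7a3 at 26.9 and Slc38a2 at 22.3 CPM per kb. Slc38a3, Slc38a7 and Slc38a1 followed at 18.93, 18.05 and 17.85, and the ranges of Slc38a3 and Slc38a7, and of Slc38a7 and Slc38a1, overlapped. Slc36a4, Slc38a10, Slc7a8, Slc7a14 and Slc7a11 came next, from 14.5 down to 7.60, each apart from its neighbour in range. Slc43a2, Slc36a1, Slc7a4 and Slc7a6, from 5.74 to 4.68, overlapped with their neighbours in that order. Slc7a2 stood alone at 3.69 and Slc7a10 at 1.44, and Slc38a9, Slc7a7 and Slc38a6, from 0.990 to 0.825, overlapped again. Of the 34 neighbouring pairs of all members, 17 overlapped in the range of recovered reads over the 3 libraries. In the deposited values, which pull libraries together, 4 did. On the length of the longest transcript Slc38a1 moved from place 8 to place 4.

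**Figure D2:**
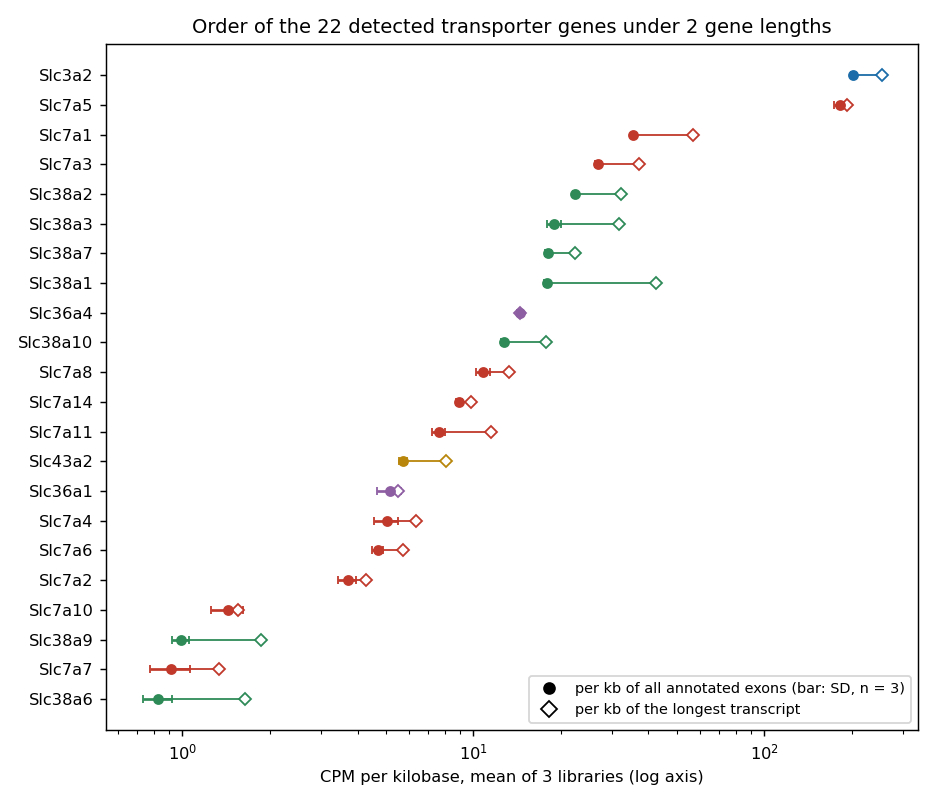
CPM per kilobase from recovered reads (log axis) of the 22 detected members, ordered by deposited level, as filled circles per kb of all exons with SD bars (n = 3) and open diamonds per kb of the longest transcript, coloured by family as in the plot of levels by library. Slc3a2 and Slc7a5 stand far to the right under both lengths, and Slc38a1 shows the widest shift, to 42.3 CPM per kb.

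In all, 15 ratios between members with related roles were computed, and the first-named gene was higher in 9 of them, the other in 6. For each ratio the deposited values had the same sign in 3 of 3 libraries. The two-sided exact sign-flip permutation test gave p = 0.25 for each (Benjamini-Hochberg adjusted 0.25), the smallest that 3 libraries allow, so none could pass a threshold of 0.05. The 0.5 CPM per kb added bears on every pair with a low member. For the 4 pairs with a member of fewer than 60 reads, pooled reads with nothing added were therefore given above.

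**Figure D3:**
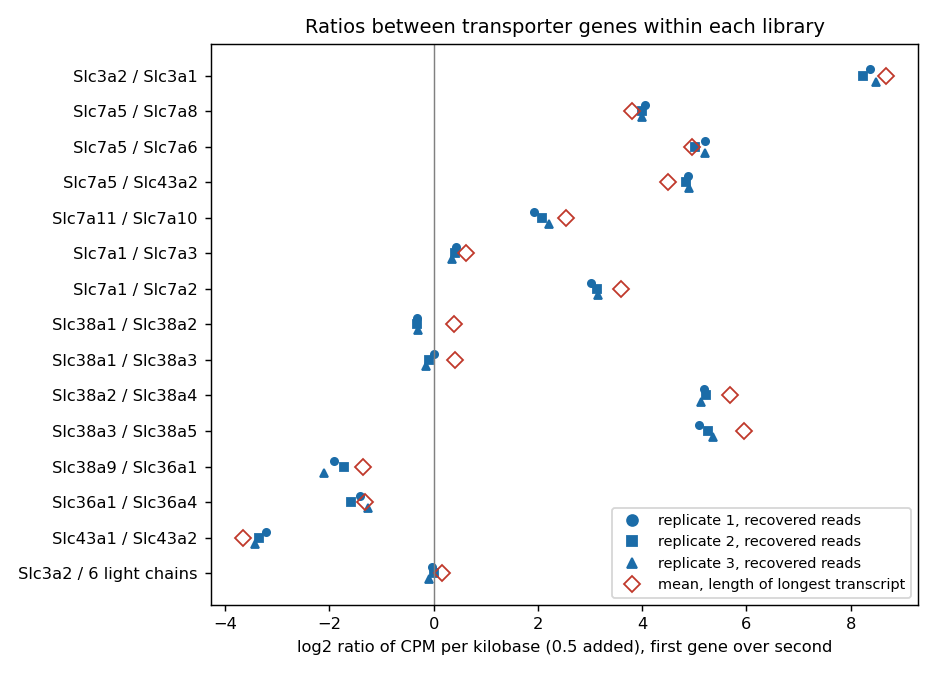
Log2 ratio of CPM per kilobase, first gene over second, for the 15 pairs, with 1 blue symbol per library from recovered reads and a red open diamond for the mean of deposited values on the length of the longest transcript. The ratios of Slc38a1 to Slc38a2 and to Slc38a3, and of Slc3a2 to its 6 light chains, are those whose diamond lies across the line at 0 from the mean of the symbols.

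Differences between the 3 libraries were small for most members. Of the 25 members with a mean of 10 reads or more, 3 differed by more than counting error at an adjusted p under 0.05 (12%), in a Pearson chi-square test of recovered reads adjusted over all 15131 genes tested. The share of all genes called was 8.62%, so the members' share was near the background. Slc7a5 had 12763, 12062 and 13276 reads after scaling by size factors, a 1.10-fold range (adjusted p = 3.25e-11). Slc38a3 had a 1.12-fold range (adjusted p = 0.0159) and Slc7a11 a 1.11-fold range (adjusted p = 0.0402). The order of libraries was not shared: replicate 2 was lowest for Slc7a5 but highest for Slc7a11, and replicate 1 was lowest for Slc38a3. The 2 genes of the LAT1 heterodimer thus varied unequally, with a 1.02-fold range for Slc3a2 (adjusted p = 0.534), though the difference between them was not tested.

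All 3 calls were lost when size factors were fitted in bins of GC content and length, with adjusted p = 0.0553 for Slc7a5, 0.0601 for Slc38a3 and 0.516 for Slc7a11. The call of Slc7a11 was also lost with total reads as size factors (adjusted p = 0.0583) and with no filter on low counts (adjusted p = 0.0669). Without replicate 1, Slc7a5 and Slc36a1 were called. Without replicate 2, Slc38a3 alone was called, and Slc7a5 had an adjusted p of 0.0590. Without replicate 3, Slc7a5 and Slc7a11 were called. Against the spread that genes of like abundance show between these libraries, 0 of 25 members were called, where 0.317% of all genes were, and 1 member, Slc36a1, had an unadjusted p under 0.05 (0.0392). The median range between libraries was 1.11-fold for the members and 1.11-fold for all genes tested.

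**Figure D4:**
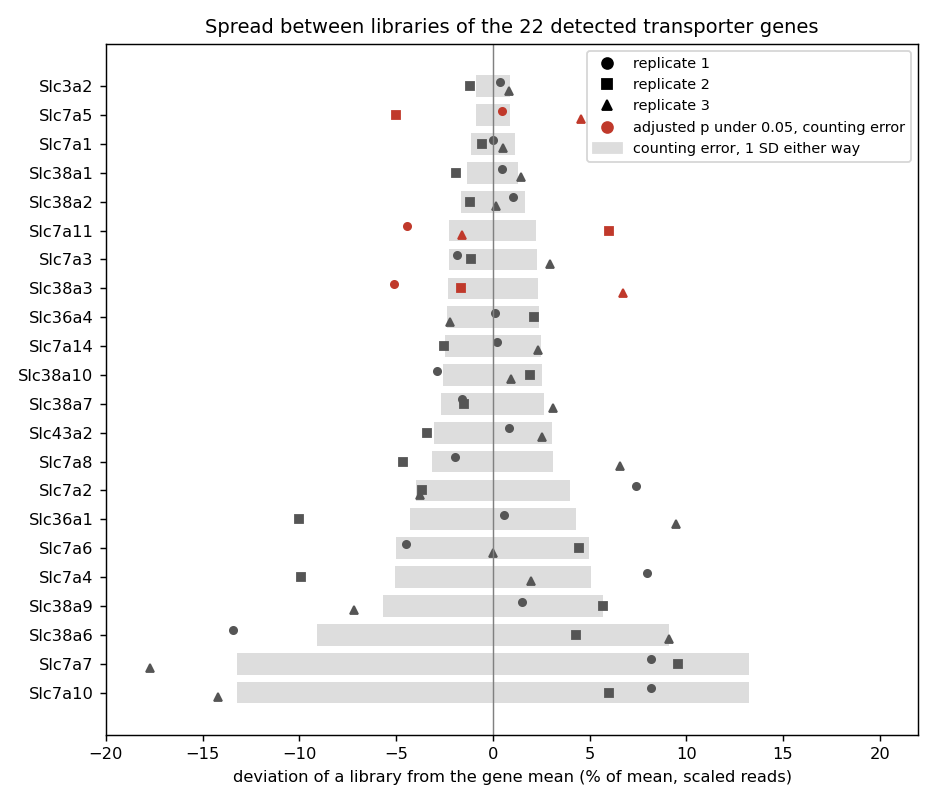
Deviation of each library from the gene's mean (percent, reads scaled by size factors) for the 22 detected members in descending order of reads, with grey bars for counting error of 1 SD either way and red symbols for the 3 members called. Points of many members lie outside the bars, among them Slc36a1 and Slc7a4, which were not called and deviate by more percent than the called Slc7a5, Slc7a11 and Slc38a3, and the bars widen down to Slc7a7 and Slc7a10 with fewer reads.

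Other genes of amino acid handling were taken in 6 lists chosen by role. Their counts of detected genes stand beside 59.2% of all protein-coding genes, and the lists hold well-known genes. Of 10 further amino acid carriers, most of them of the plasma membrane, 7 were detected, with a median of 8.73 CPM per kb. Slc1a4 (ASCT1), an exchanger of alanine, serine and cysteine, led at 504 ± 12.4 CPM, or 128 CPM per kb, which lay between Slc7a5 and Slc7a1 among the members. Slc6a17, a carrier of neutral amino acids on synaptic vesicles, reached 29.8 CPM per kb and the taurine carrier gene Slc6a6 16.7. Slc1a5 (ASCT2) reached 2.25 CPM per kb. Slc6a14, Slc6a19 and Slc6a20a were not detected, with 1, 3 and 0 reads.

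Genes of amino acid sensing at the lysosome, with Mtor, Rptor and Rheb counted among them, were detected in 22 of 23 cases. Their median was 10.5 CPM per kb. The leucine sensor gene Sesn2 was highest per kb at 80.3, followed by the GTPase gene Rraga at 76.6 and by Rragb at 38.3. Of the Castor genes, Castor2 (Gatsl2 in the files) reached 76.1 ± 2.14 CPM, whereas the arginine sensor gene Castor1 (Gatsl3) had 34 reads and was not detected. Per kb, Slc38a9, the lysosomal arginine sensor among the members, lay below Castor2 (10.1 CPM per kb) and above Castor1 (0.384) in these libraries.

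All 16 genes of the amino acid starvation response were detected, with a median of 40.2 CPM per kb. Asns, which makes asparagine, led at 216 CPM per kb, followed by Atf4, the transcription factor of this response, at 181, and Phgdh, the first enzyme of serine synthesis, at 155. Ddit3, the stress factor CHOP, reached 43.96 and Chac1, which breaks down glutathione, 85.1 CPM per kb. With 1 group, no statement on induction of this response can be made from these levels.

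All 6 glutamine and glutamate enzymes were detected (median 45.8 CPM per kb). Glul, the glutamine synthetase gene of astrocytes, led at 88.5 CPM per kb, above Glud1 at 57.8 and Got2 at 47.5. Of 8 arginine and nitric oxide enzymes 5 were detected (median 2.40), led by Odc1 of polyamine synthesis at 96.7, Arg2 at 8.23 and Ass1 at 3.84 CPM per kb. Nos2, Nos3 and Arg1 were not detected, with 3, 36 and 8 reads, and Nos1, the neuronal nitric oxide synthase gene, reached 3.73. All 6 genes of glutathione synthesis and its regulation were detected (median 9.68), led by Gclc, the rate-limiting enzyme subunit, at 18.4, Nfe2l2 (NRF2) at 10.7 and Gclm at 10.1 CPM per kb.

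**Figure D5:**
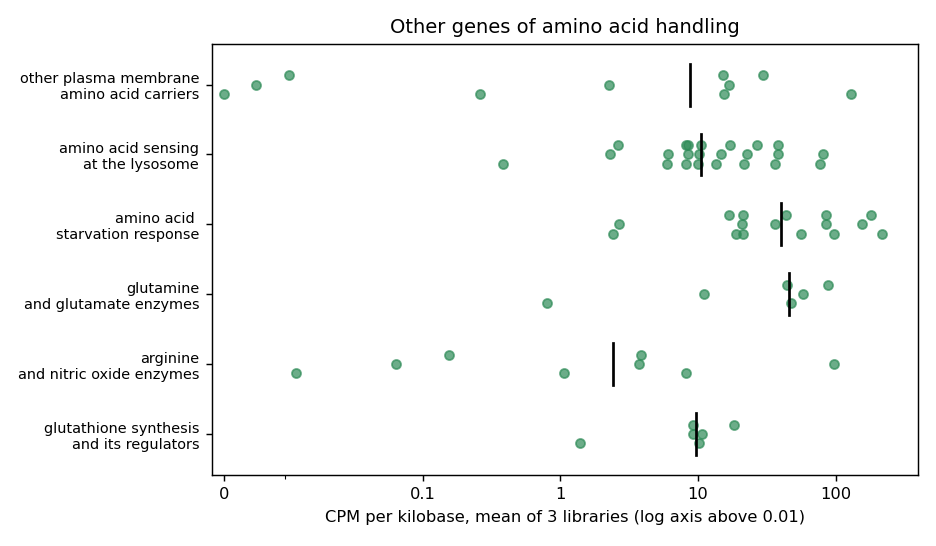
CPM per kilobase from recovered reads (mean of 3 libraries, log axis above 0.01) of the genes of 6 lists of amino acid handling, 1 point per gene, with a black line at the list median. The medians of starvation response genes (40.2) and of glutamine and glutamate enzymes (45.8) lie right of the other 4.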

How the data were processed

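Total RNA of 3 libraries was sequenced on the DNBSEQ platform, per the labels' protocols. The authors deposited 1 log2 value per gene and library. The tools named are FastQC, HISAT2, featureCounts and DESeq2 on GRCm38, per the submitters' processing notes; no source used here gives versions, settings or strand. The form of the values was that of a regularized log, which pulls libraries together at low counts, so their SD understates the spread. Whole reads were recovered by inverting a ridge-penalised negative binomial fit with 6 fitted parameters. Of 77088 values, 99.9% fell within 0.1 of a whole read (20% by chance). In each log2 range above those fitted, from 2 to 13, at least 99.44% did. Genes above log2 13, among them Slc3a2 and Slc7a5, lay outside these checked ranges.

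Levels in CPM used recovered reads, as did the chi-square tests (2 degrees of freedom, mean of 10 reads or more, median-of-ratios size factors, dispersion trend in 20 bins of abundance). Detection, family shares and ratios used 2 raised to the deposited value. Exon lengths came from GENCODE M21 (GRCm38), which matched 45224 of 47593 rows. Rows at 0 in all libraries were taken as no reads. Python 3.11.15, NumPy 2.4.6 and SciPy 1.17.1 were used, and both the recovery and the test were tested on simulated data.

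Members, lists, pairs and tests were chosen with earlier results of these data known. Values in each library are given for Slc3a2, the 2 highest members per kilobase of each family, members of a pair, and members called in the variation test; other members were added to account for all 35. In each list the 3 highest genes and those not detected are named, with a few more chosen after their values were seen. Alternatives were recovered reads, other lengths, constants, filters, thresholds, size factors, and each library left out. Protein sequences were not used here, so the planned comparison of proteins was not run.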

Additional observations from a re-analysis of the deposited data

How the results depend on the processing

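Of 371 alternative values, 307 stayed the same, where same meant within 1 SD for a level or share, the same direction for a ratio, the same side of 0.05 for a p-value and within 1.5 times for a count. With 3 libraries, leaving out 1 cannot move a mean beyond 1 SD nor turn a ratio of 1 sign. Another added constant cannot turn such a ratio either. These outcomes were fixed, so the number that stayed the same does not measure robustness. All 5 reversals came from gene length: Slc38a1 over Slc38a2 turned to 0.64 without length scaling and 0.39 on the longest transcript, Slc38a1 over Slc38a3 to 1.62 and 0.41, and Slc3a2 over its light chains to 0.17 on the longest transcript. Per kilobase the family shares moved to 33.2% for SLC3, 15.1% for SLC38, 3.24% for SLC36 and 1.00% for SLC43. Leaving mitochondrially encoded genes out of the sum raised the members to 3462 CPM. Only the sum changed, so every level rose by the same factor within a library. Most of the 38 moves among 165 alternatives for single member levels were of this kind. Neighbouring pairs that overlapped numbered 17 in recovered reads, and 16 in recovered reads scaled by the longest transcript, against 4 in deposited values on all exons; both settings were chosen after seeing the data. Members called for variation numbered 0 with GC content and length bins, and 1 to 2 when a library was left out. At a minimum mean of 50 reads 4 were called, Slc36a1 being added. At 0.5 CPM 25 members were detected and at 5 CPM 20. The cause of the other moves was not tested. No paired analysis was possible because there was 1 group. Under about 0.16 CPM per library a member could not be told from absent.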
